A study of Mus musculus with 12 samples.

Results

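The transcripts of 8 complement genes were followed across macrophage-like and tumour cells: the C1q chains C1qa, C1qb and C1qc, the components C3, Cfb and Cfp, and the anaphylatoxin receptors C3ar1 and C5ar1. The members were all probes of the array that carry one of these 8 gene names, which gave 9 probes of 55681, with 2 for C3 and 1 for each of the others. The 8 genes stand among 35080 gene names on the array. Total RNA was read on 1-colour expression arrays from 12 mouse cell samples, 1 array each, in 4 groups of 3. The first group was RAW264.7, a macrophage-like cell line of the mouse, transfected with a short hairpin RNA against ABHD5 (ABHD5-KD, called knockdown cells), and the second was RAW264.7 cells transfected with PLKO, the control. The third group was CT-26, a colon carcinoma line of the mouse, which had been primed by ABHD5-KD RAW264.7 cells (knockdown-primed), and the fourth was CT-26 cells primed by RAW264.7 cells and labelled control (control-primed). The study asked what macrophage Abhd5 acts on and how the macrophages affect cancer cells. Not stated in the labels are the way of priming, any separation of CT-26 cells from macrophages before RNA extraction, the number of hairpins or clones, and whether replicates were grown as separate cultures. Since the spread between samples may be technical, the p-values measure no more than that spread.

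Complement is a cascade of plasma and tissue proteins that marks particles and cells for removal. C1q, built from the chains of C1qa, C1qb and C1qc, starts the classical pathway. All pathways meet at C3, whose cleavage leaves C3b on surfaces and frees the anaphylatoxin C3a. Factor B (Cfb) forms the alternative pathway convertase with C3b, and properdin (Cfp) stabilises it. C3a acts on the receptor encoded by C3ar1, and C5a, freed from C5, acts on the one encoded by C5ar1. Macrophages make many of these components themselves and carry both receptors.

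The sequences below show what was measured for the alternative pathway pair that changed in the macrophages, C3 and Cfb. Both probes have 60 bases, and each can be read through without a stop in at least 1 frame. The C3 probe lies at chr17:57343678-57343737 and the Cfb probe, which spans an exon junction, within chr17:34993502-34993858, both on the minus strand of mm9.
C3 probe: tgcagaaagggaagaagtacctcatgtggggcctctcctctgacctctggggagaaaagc
Cfb probe: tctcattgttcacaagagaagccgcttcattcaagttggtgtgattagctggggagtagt

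Upstream sequence was read from RefSeq (GRCm38.p6) for the 3 genes with the largest rises in the macrophages, as the 250 bases before the annotated start. In them, 8 motifs were searched on both strands, and capitals mark every match. The C3 window is chr17:57228137-57228386, the C3ar1 window chr6:122856158-122856407 and the C5ar1 window chr7:16259339-16259588, all on the minus strand.
C3: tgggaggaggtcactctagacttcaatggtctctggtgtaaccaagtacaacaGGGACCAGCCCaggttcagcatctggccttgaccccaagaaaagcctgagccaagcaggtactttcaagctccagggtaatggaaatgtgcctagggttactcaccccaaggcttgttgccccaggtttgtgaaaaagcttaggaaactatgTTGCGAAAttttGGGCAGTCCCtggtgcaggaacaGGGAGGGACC
C3ar1: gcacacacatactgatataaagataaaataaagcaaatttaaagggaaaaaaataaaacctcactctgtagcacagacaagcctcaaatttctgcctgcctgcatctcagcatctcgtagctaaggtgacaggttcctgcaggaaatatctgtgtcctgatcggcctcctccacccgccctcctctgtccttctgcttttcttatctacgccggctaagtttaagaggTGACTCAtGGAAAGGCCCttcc
C5ar1: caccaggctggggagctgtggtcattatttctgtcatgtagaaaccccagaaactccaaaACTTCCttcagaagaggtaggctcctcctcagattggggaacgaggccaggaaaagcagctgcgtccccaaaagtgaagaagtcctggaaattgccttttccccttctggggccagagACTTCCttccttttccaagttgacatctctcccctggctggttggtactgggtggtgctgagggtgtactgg

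The 3 windows did not share a motif. The C3 window held the NF-kB pattern at 3 places, where overlapping matches on both strands gave 5 hits, and 1 C/EBP pattern TTGCNNAA 45 to 38 bases before the start. The C3ar1 window held 1 palindromic AP-1 pattern TGANTCA, 22 to 16 bases before the start, and 1 NF-kB pattern beside it. The C5ar1 window held none of these, but the ETS core GGAAGT at 2 places, on the minus strand of the gene. Of all 32851 promoter windows of the same length, 45.8% held the NF-kB pattern, 9.56% the C/EBP pattern, 6.75% the AP-1 pattern and 19.7% the ETS core. The longer ETS pattern GAGGAAGT (2.44% of windows), the paired half-site of the interferon response element (2.98%), the Maf pattern TGCTGAC (3.81%) and the E-box CACGTG (6.02%) were not found in these 3 windows. A match is a description of the letters, not a site.

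Levels are log2 signals relative to the 75th percentile of each array, and a probe was called well above background by the scanner software. Between 56.5% and 73.0% of spots were well above background on the RAW264.7 arrays and between 59.3% and 77.3% on the CT-26 arrays, and no spot was saturated. RAW264.7 control replicates 1 and 2 shared slide 1, and control replicate 3 and all knockdown arrays shared slide 2. All CT-26 arrays shared slide 3. The dimmest signal well above background was -4.80 and -4.60 on the slide 1 arrays, against -6.77 to -6.32 on the slide 2 arrays. A level missed on slide 1 could thus be detected on slide 2. The silenced gene Abhd5, a co-activator of triglyceride lipolysis, averaged 0.29 in knockdown RAW264.7 cells and 1.61 in control RAW264.7 cells, a log2 change of -1.32 ± 0.20 (SE, limma adjusted p = 0.00346). With the slide as a block this change was -1.23 with a limma adjusted p of 0.0556, which ends the call. Its other 2 probes gave -1.30 (limma adjusted p = 0.0157, over all probes) and -0.78 (limma adjusted p = 0.0759). All 15 macrophage markers were well above background on every RAW264.7 array. On CT-26 arrays 10 of 15 were so in knockdown-primed cells and 11 to 12 in control-primed cells, and the macrophage markers Spi1, Adgre1 and Cybb were so on none. The dimmest signal well above background was -6.01 to -5.00 on knockdown-primed arrays and -7.23 to -6.22 on control-primed arrays. Detection thus needed a brighter signal in knockdown-primed cells, and these counts cannot be compared between the priming conditions. All 7 mesenchymal markers were well above background on every CT-26 array, against 5 to 6 of 7 epithelial markers, where Cdh1 was so on none and Epcam on 1 array. On RAW264.7 arrays 4 to 7 mesenchymal and 2 to 7 epithelial markers were so, and these counts overlap between the lines. The mean mesenchymal level did not overlap, at 3.18 to 3.48 on CT-26 and -3.85 to -2.66 on RAW264.7 arrays.

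Abhd5 knockdown in RAW264.7 cells was accompanied by higher transcripts of 4 of the 8 complement genes. C3 was 14.1 times and C3ar1 9.0 times higher, and both were measured on all arrays. Cfb and C5ar1 also rose, but only 1 of 3 control arrays measured either gene well above background, so their sizes are less certain. C1qa, C1qb and properdin did not pass the test, and C1qc was not measured. C3, the central component, had log2 levels of 1.89, 2.11 and 2.48 in knockdown cells, against -1.74, -1.52 and -1.72 in control cells. The groups were far apart, and C3 rose by 3.82 ± 0.20 (SE, 14.1-fold, n = 3 each, limma adjusted p = 1.33e-05). The other C3 probe, the one printed above, gave 2.18, 2.47 and 2.88 in knockdown cells and -2.07, -2.29 and -1.95 in control cells. Its change of 4.61 ± 0.23 (limma adjusted p = 1.21e-05, over all probes) had the same direction as that of the first and was larger.

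Cfb, the protease of the alternative pathway convertase, had levels of -3.64, -4.02 and -3.50 in knockdown cells, against -6.97, -6.90 and -5.85 in control cells. The groups did not overlap, but only control replicate 3 was well above background among the controls. The fitted rise of Cfb was 2.85 ± 0.31 (SE, 7.22-fold, limma adjusted p = 6.36e-04). Its size depended on the treatment of dim signals: after normexp background correction it was 1.12, with a limma adjusted p of 0.00278, and after quantile normalization 3.90. Properdin (Cfp), the stabiliser of the same convertase, did not follow. It had levels of 5.17, 5.36 and 5.27 in knockdown cells and 5.08, 5.39 and 5.36 in control cells, which overlapped. Its change was -0.01 ± 0.18 (95% interval -0.42 to 0.39, limma adjusted p = 0.956). That value depends on the scaling, since quantile normalization gave 0.52 with a limma adjusted p of 0.0405, where the median of all genes moved to -0.08 from -0.30.

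Both anaphylatoxin receptor genes rose. C3ar1 had levels of -0.62, -0.03 and 0.16 in knockdown cells, against -3.59, -3.39 and -3.02 in control cells, and was well above background on all 6 arrays. Its rise of 3.17 ± 0.25 (SE, 9.0-fold, limma adjusted p = 1.08e-04) left no overlap between the groups. C5ar1 had levels of -1.89, -2.16 and -2.07 in knockdown cells, against -5.43, -5.68 and -5.17 in control cells, of which again only control replicate 3 was well above background. Its fitted rise was 3.39 ± 0.20 (SE, 10.5-fold, limma adjusted p = 2.00e-05), and 2.04 after normexp, with a limma adjusted p of 3.87e-05.

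Neither C1q chain that could be tested passed. C1qb had levels of -3.65, -3.49 and -3.67 in knockdown cells, against -3.07, -2.91 and -3.18 in control cells. The groups did not overlap, yet the change of -0.55 ± 0.17 (SE) missed the threshold with a limma adjusted p of 0.0520. It lay below the threshold with a stricter filter on dim probes (0.0395) and above it with the slide as a block (0.391). C1qa had levels of -3.23, -4.78 and -4.41 in knockdown cells and -3.41, -3.87 and -3.54 in control cells. Knockdown replicate 1 was the highest of all 6 arrays and the other 2 knockdown arrays were the lowest, so that the change of -0.54 ± 0.37 (SE) had a limma adjusted p of 0.281. Without that replicate it was -0.99, with a limma adjusted p of 0.0445. C1qc was not well above background on any of the 12 arrays, and no change is given for it.

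**Figure D1:**
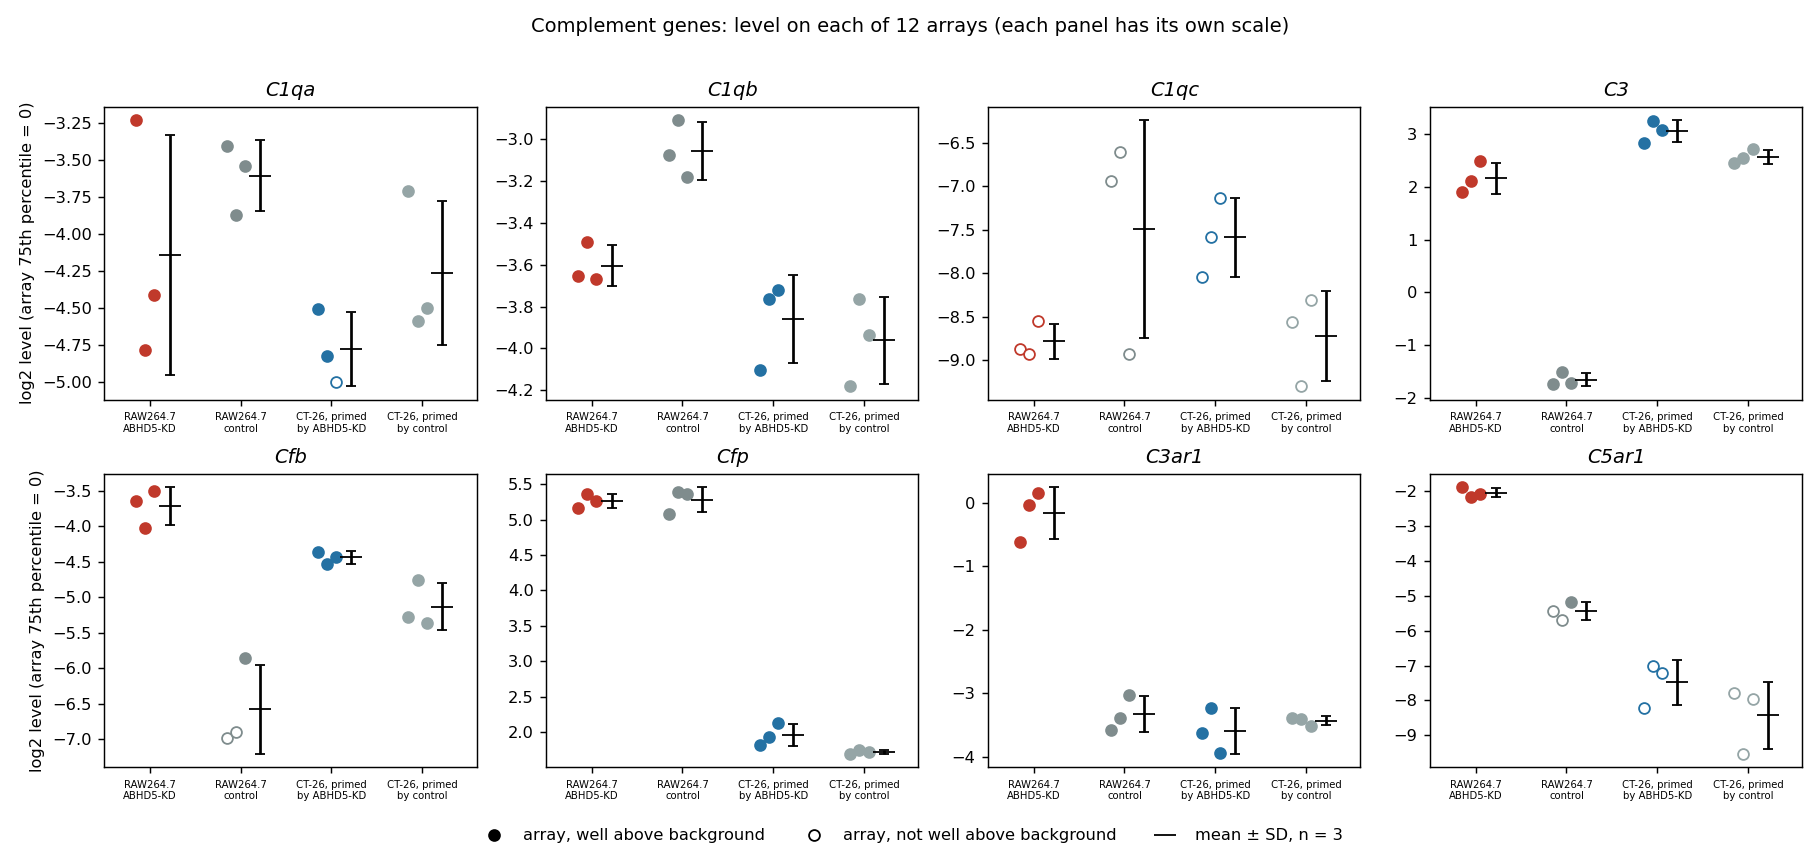
Log2 level of each complement gene on each array, relative to the array's 75th percentile, in knockdown RAW264.7, control RAW264.7, knockdown-primed CT-26 and control-primed CT-26 cells. Points are arrays, filled where well above background, and bars are mean ± SD (n = 3). C3, Cfb, C3ar1 and C5ar1 lie higher in knockdown than in control RAW264.7 cells with no overlap, and C1qc is open on all 12 arrays.

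In all, 7 of the 8 genes could be tested in RAW264.7 cells, and 4 rose and 0 fell, at a limma adjusted p under 0.05 over all 25460 genes tested. Of all genes tested, 7.94% rose and 14.8% fell, 22.8% in all. The median change of the 7 was 2.85, which is the value of Cfb, beside -0.30 for all genes tested. Cfb and C5ar1 could be tested only through the knockdown group, where their signal was higher. The filter thus favoured their rises, so neither the median of the 7 nor the count of 4 is a measure of the set. C3 and C3ar1 were well above background on every RAW264.7 array and did not depend on this. Relative to that all-gene median the rises were 4.12 for C3, 3.69 for C5ar1, 3.47 for C3ar1 and 3.16 for Cfb. Of the 15 macrophage markers 4 rose and 2 fell as well: Adgre1 by 2.86, Mpeg1 by 2.77, Lyz2 by 1.88 and Cd53 by 0.84, while Cybb changed by -1.22 and Coro1a by -0.63. Their part in the complement changes was not tested. On slides, 2 of 3 control arrays lay apart from the knockdown arrays. With the slide as a block the rises were 3.88 for C3, 3.13 for C5ar1, 2.86 for C3ar1 and 2.13 for Cfb, each with a limma adjusted p at or below 0.00408. All knockdown arrays were on slide 2, so these sizes compare them with control replicate 3 alone. The 4 arrays of slide 2 fitted alone gave the same sizes and are no separate check. This limit holds for every RAW264.7 change given with the slide as a block.

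**Figure D2:**
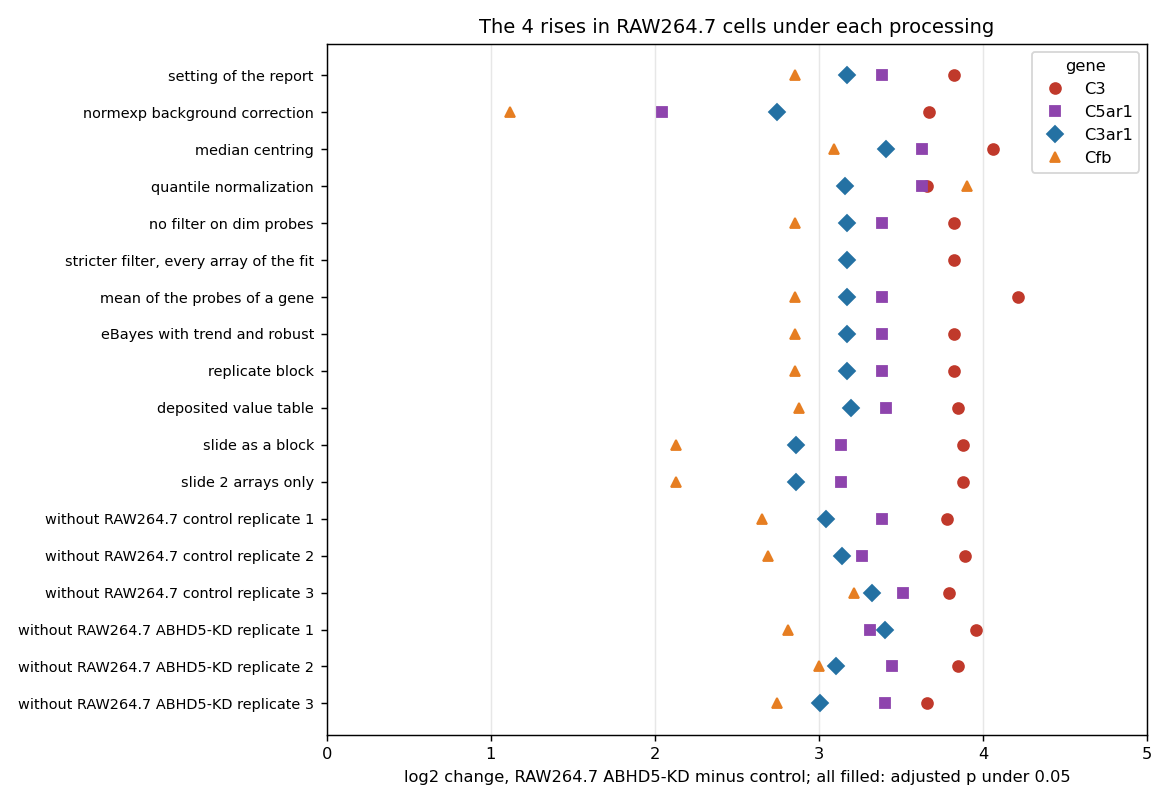
Log2 change of the 4 genes that rose, knockdown minus control RAW264.7 cells, under each processing. Each row is a setting and each symbol a gene, and all are filled, meaning a limma adjusted p under 0.05. C3 stays between 3.66 and 4.21, and Cfb ranges most, from 1.12 after normexp to 3.90 after quantile normalization; Cfb and C5ar1 are absent from the stricter filter because 2 control arrays were not well above background.

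In CT-26 cells, none of the 6 complement genes that could be tested passed the threshold between the priming conditions. On the probes tested, C3, Cfb and Cfp had groups that did not overlap, but how many of all genes did so was not counted. C3 had levels of 2.83, 3.25 and 3.07 in knockdown-primed cells and 2.46, 2.54 and 2.72 in control-primed cells, which did not overlap. The difference was 0.48 ± 0.17 (SE, limma adjusted p = 0.102, unadjusted p = 0.0182). The other C3 probe gave levels of 2.62, 3.07 and 2.78 in knockdown-primed cells and 2.19, 2.89 and 2.92 in control-primed cells, which overlapped, and a difference of 0.16 ± 0.23. Cfb had levels of -4.36, -4.54 and -4.43 in knockdown-primed cells and -5.28, -4.76 and -5.36 in control-primed cells, with no overlap. The difference of 0.69 ± 0.19 (SE, 1.62-fold) had a limma adjusted p of 0.0606 and an unadjusted p of 0.00511. It passed after normexp (limma adjusted p = 0.0325) and with the stricter filter (0.0447), so that the count was 1 of 6 and 1 of 5 there. Of all 24995 genes tested in CT-26 cells, 6.37% passed, 3.15% higher and 3.21% lower in knockdown-primed cells.

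The remaining genes gave smaller or less certain differences in CT-26 cells. Cfp had levels of 1.82, 1.94 and 2.13 in knockdown-primed cells and 1.70, 1.76 and 1.72 in control-primed cells. The groups did not overlap, but the difference of 0.24 ± 0.15 (SE) had a limma adjusted p of 0.313. C3ar1 had levels of -3.63, -3.23 and -3.94 in knockdown-primed cells and -3.38, -3.40 and -3.52 in control-primed cells, which overlapped, with a difference of -0.16 (95% interval -0.60 to 0.28). C1qb differed by 0.10 (95% interval -0.30 to 0.50) and C1qa by -0.51 (95% interval -1.08 to 0.05), and their groups overlapped. C5ar1 was not well above background on any CT-26 array, and no difference is given for it. The summed level of the 15 macrophage markers, on a linear scale with each array's 75th percentile as 1, was 5.0 to 5.88 in knockdown-primed cells and 6.33 to 6.87 in control-primed cells, against 269.7 to 299 and 258 to 275 in knockdown and control RAW264.7 cells. The mean log2 level of these markers overlapped, at -3.89 to -3.78 in knockdown-primed and -4.13 to -3.77 in control-primed cells. Bright markers weigh most in the sum, and Cd68 changed by -0.83 in knockdown-primed cells (limma adjusted p = 0.0208). Whether RNA from macrophages contributed to the CT-26 levels was not tested. In such bulk samples, fewer cells of a type and less RNA per cell cannot be told apart.

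**Figure D3:**
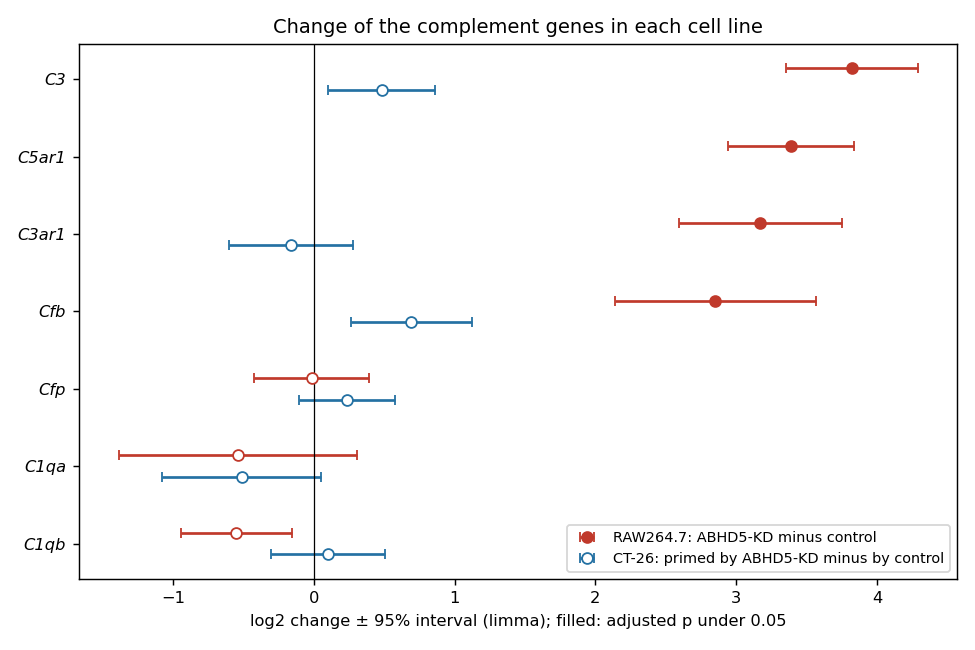
Log2 change with its 95% interval from limma for each gene that could be tested, in RAW264.7 cells (knockdown minus control) and in CT-26 cells (knockdown-primed minus control-primed), n = 3 each. Filled points passed the threshold. The filled genes number 4, all in RAW264.7 cells, between 2.85 and 3.82, and no CT-26 point is filled; C5ar1 has no CT-26 point.

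The responses of the cell lines were compared by an interaction contrast over all 12 arrays, the change in RAW264.7 cells minus that in CT-26 cells. The 4 genes that rose in the macrophages also passed here, out of 7 tested, and 0 passed in the other direction. C5ar1 could be tested here only through the knockdown RAW264.7 arrays, so this count is no measure of the set either. Of all 27067 genes tested, 7.44% passed with a larger change in RAW264.7 cells and 23.9% with a smaller one, 31.4% in all. The difference was 3.34 ± 0.26 (SE) for C3 (limma adjusted p = 9.69e-06) and 3.33 ± 0.34 for C3ar1 (limma adjusted p = 7.33e-05). For Cfb it was 2.16 ± 0.40 (limma adjusted p = 0.00383), but 0.46 after normexp (limma adjusted p = 0.118), which ends the call. For C5ar1 the limma adjusted p was 0.0120, and 0.0802 with the slide as a block. Its size, 2.45, cannot be read as a difference in response, since no CT-26 array measured the gene. C1qb gave -0.65 ± 0.24 (limma adjusted p = 0.0551), while C1qa (-0.03) and Cfp (-0.25) had intervals that spanned 0.

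The order of the groups differed from gene to gene. Cell line and slide cannot be told apart in this order, since the CT-26 arrays had a slide of their own. Among 6 complement genes tested between control RAW264.7 and control-primed CT-26 cells, 2 were higher and 2 lower in the macrophages, where 45.7% and 26.5% of all 25581 genes tested were, 72.2% in all. Properdin had the clearest macrophage excess, with Cfp 3.55 ± 0.15 (SE) higher in control RAW264.7 cells than in control-primed CT-26 cells (11.7-fold, limma adjusted p = 4.72e-10), and C1qb was 0.91 ± 0.17 higher (limma adjusted p = 3.95e-04). C3 ran the other way and was 4.23 lower in control RAW264.7 cells (SE 0.18, 18.8-fold, limma adjusted p = 5.81e-10). On the first C3 probe the highest knockdown RAW264.7 array (2.48) overlapped the lowest control-primed CT-26 array (2.46). Knockdown-primed CT-26 cells lay highest on that probe. On the other C3 probe the ranges of knockdown RAW264.7 (2.18 to 2.88), control-primed (2.19 to 2.92) and knockdown-primed CT-26 cells (2.62 to 3.07) overlapped. Cfb was 1.44 lower in control RAW264.7 than in control-primed CT-26 cells (limma adjusted p = 5.63e-04), but 0.27 lower after normexp, which did not pass. Knockdown RAW264.7 cells had the highest Cfb, followed without overlap by knockdown-primed and then control-primed CT-26 cells. The rank of control RAW264.7 cells is not settled, since 2 of their 3 arrays did not measure Cfb well above background. C3ar1 was high in knockdown RAW264.7 cells alone, while the ranges of the other 3 groups overlapped. C5ar1 was well above background on all 3 knockdown RAW264.7 arrays, on 1 control RAW264.7 array and on no CT-26 array. The control RAW264.7 arrays that missed it were those of slide 1, where detection needed a brighter signal. C1qb was highest in control RAW264.7 cells and next in knockdown RAW264.7 cells, above both CT-26 groups, which overlapped each other. C1qa averaged highest in control RAW264.7 cells, then in knockdown RAW264.7, control-primed CT-26 and knockdown-primed CT-26 cells, and each group overlapped the next.

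Other genes of the cascade were taken from a list of 45, of which 44 had a probe. In RAW264.7 cells 32 could be tested, and 8 rose and 7 fell after knockdown, beside 7.94% and 14.8% of all genes. Their median change was -0.22 beside -0.30 for all genes. The 2 largest rises were those of receptor genes. Cd93, a receptor once assigned to C1q, had levels of 0.10, 0.69 and 1.02 in knockdown cells against -3.54, -2.90 and -3.11 in control cells, and rose by 3.79 ± 0.28 (SE, limma adjusted p = 6.94e-05). Itgax, the alpha chain of complement receptor 4, had levels of -3.70, -3.77 and -2.79 in knockdown cells against -6.84, -6.72 and -6.30 in control cells, and rose by 3.20 ± 0.29 (limma adjusted p = 2.28e-04). Only 1 control array measured Itgax, and its rise was 1.42 after normexp. The membrane attack inhibitors rose as well, Cd59a by 1.14 ± 0.18 and Cd59b by 2.13 ± 0.42 (limma adjusted p = 0.00405 and 0.0115). Only 1 control array measured Cd59b, and whether the probes of these related genes share transcripts was not tested.

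Initiators of the cascade moved both ways in RAW264.7 cells. C4b, cleaved by the classical and lectin proteases, rose by 1.11 ± 0.23 (limma adjusted p = 0.0146). The brightest probe of C1s2, a copy of the C1s protease gene, gave a fitted rise of 2.25 (limma adjusted p = 7.13e-04), and it was at least 1.54-fold higher in knockdown cells, since no control array measured it. A second C1s2 probe gave -0.43 and did not pass. After normexp the first gave 0.48 and did not pass either (limma adjusted p = 0.118). The lectin pathway protease gene Masp2 fell by 0.93 and C6, a subunit of the membrane attack complex, by 0.94 (limma adjusted p = 0.0117 and 0.0133), though only 1 control array measured C6, the group with the higher signal. Classical and lectin initiators showed 3 rises and 2 falls among 11 tested, and terminal pathway genes 0 and 2 among 5. Soluble regulators showed 0 and 2 among 3, membrane regulators 2 and 0 among 5, and other receptors 3 and 1 among 7. Of all genes 7.94% rose and 14.8% fell. Whether the roles differ was not tested, and these classes are small. With the slide as a block 4 of the 15 calls remained, all rises: Cd93, Itgax, C1s2 and Cd59a. Without knockdown replicates 1, 2 and 3 in turn 7, 5 and 6 of the 15 remained, and without control replicate 1 there were 9. The 7 falls shrank to 3 with median centring and to 4 after quantile normalization. The probes of Itgam, the alpha chain of complement receptor 3, disagreed: the brightest gave -0.38 and did not pass, while the other 2 gave 1.52 and 1.53 (limma adjusted p = 0.00444 and limma adjusted p = 0.00156, over all probes). A second Masp2 probe gave -0.81 (limma adjusted p = 0.0282, over all probes). The probes of Cd55b, a decay-accelerating factor gene, gave 0.29 and -0.86.

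**Figure D4:**
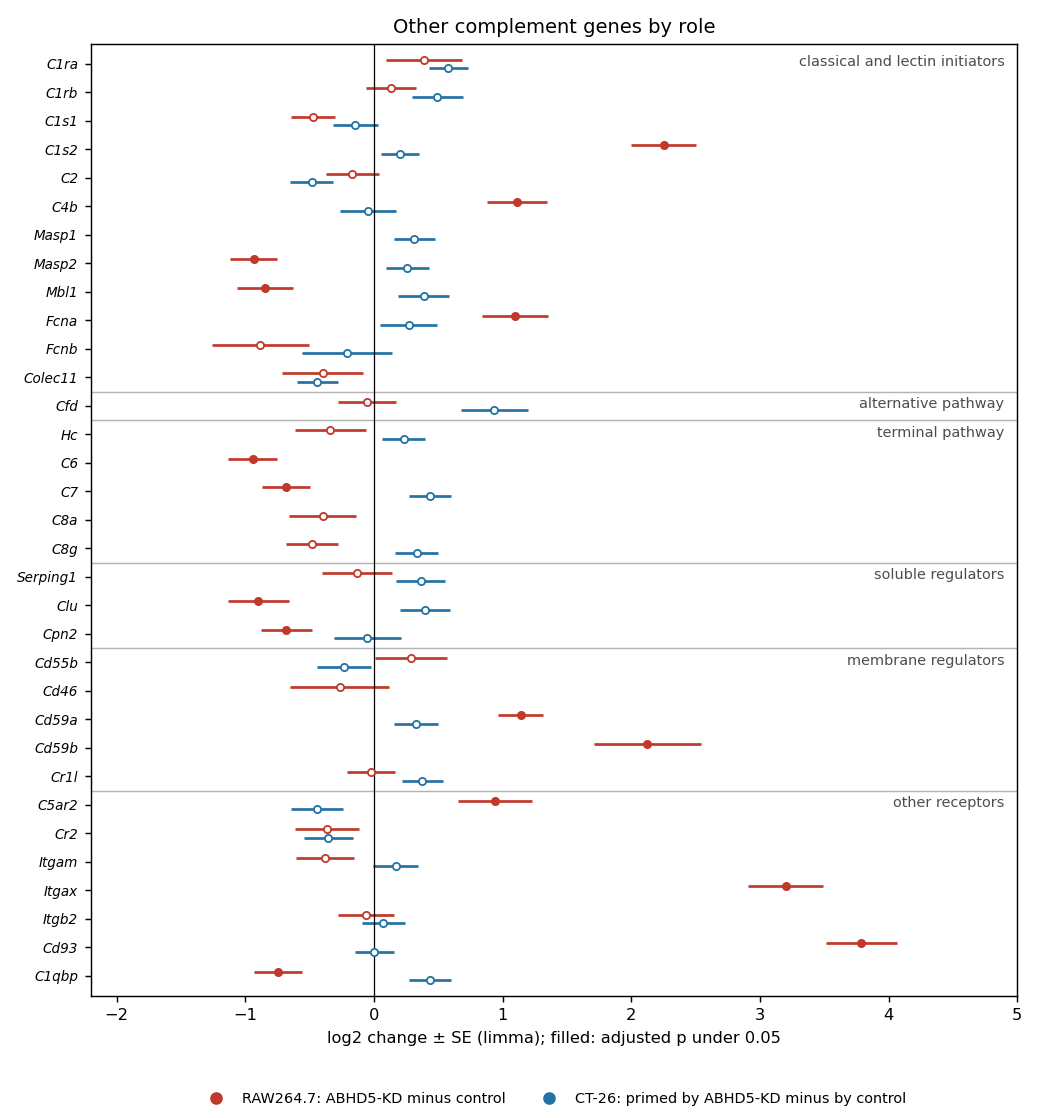
Log2 change ± SE of the other complement genes that could be tested, by role, in RAW264.7 cells (knockdown minus control) and CT-26 cells (knockdown-primed minus control-primed), n = 3 each; filled points passed the threshold. The rises of Cd93 (3.79) and Itgax (3.20) stand far to the right in RAW264.7 cells, and no CT-26 point is filled.

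In CT-26 cells 28 of these genes could be tested, and 0 passed with limma in either direction, beside 6.37% of all genes. Under the alternatives 1 passed after normexp, without a filter on dim probes, with a trended robust variance and without knockdown-primed replicate 1, and 2 passed with the stricter filter, all higher in knockdown-primed cells. Their median change was 0.25 beside 0.11 for all genes. C1ra, which encodes the protease that activates C1s, lay 0.58 higher in knockdown-primed cells (limma adjusted p = 0.0551), and Cfd, the adipsin gene of the alternative pathway, 0.94 higher (0.0618). A second C1ra probe gave a smaller difference of 0.35 (limma adjusted p = 0.218, over all probes). In the interaction contrast 12 of 33 passed, 6 in each direction, beside 31.4% of all genes. Between the control groups, 10 of 28 were higher and 11 lower in control RAW264.7 than in control-primed CT-26 cells, beside 45.7% and 26.5% of all genes. The C1 protease genes were among the lower ones, with C1s1 at -5.25, C1ra at -3.80 and C1rb at -3.40, as were C4b at -2.55 and Masp1, a lectin pathway protease gene, at -3.33. Masp1 was measured on only 1 control RAW264.7 array, so its size is uncertain. The brightest C1s2 probe was at least 428-fold lower in control RAW264.7 cells, where it was not well above background on any array. Itgb2, the beta chain shared by complement receptors 3 and 4, was 4.70 higher in control RAW264.7 cells, and Cd59a 4.36 higher. Among these 8 genes the highest limma adjusted p was 8.40e-07. C1ra and C1rb, like C1s1 and C1s2, are near-identical copies whose probes may share transcripts.

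Genes most like each member over the 12 arrays were found by the root-mean-square difference between log2 levels after each gene's own mean was subtracted. For C3 they were Arhgap31 (0.29), Gsdme (0.31) and the cytokine gene Csf2 (0.36), which differed by 4.30, 3.34 and 3.72 between knockdown and control RAW264.7 cells. For C3ar1 they were Scn11a (0.34), Cd93 (0.35) and Mtmr7 (0.39), and for Cfb they were B3galnt1 (0.32), Cda (0.34) and Stx11 (0.39). Cfp was nearest to Dcxr (0.15), Gpsm3 (0.16) and the leukocyte tetraspanin gene Cd37 (0.16). C1qb was nearest to Hdac6 (0.09), Mpp6 (0.10) and Eif3f (0.10), and C1qa to Nars2 (0.28), Exd2 (0.30) and Ints2 (0.31). C5ar1 was nearest to Hpgds (0.50), Fbp1 (0.51) and Prss46 (0.52), a likeness that rests partly on CT-26 signals at background. None is given for C1qc, which no array measured.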

How the data were processed

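Per the file headers, the arrays were Agilent mouse 1-colour arrays read with Agilent Feature Extraction 10.7.3.1, with probe coordinates of mm9, and the deposited scanner files hold linear intensity per spot, background-corrected within the array by that software. The authors' deposited value table, used only as an alternative, held log2 values for the RAW264.7 arrays, as read from its values; 5 of its 6 CT-26 columns matched another replicate of the same group.

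Control and outlier spots were left out, the array's 75th percentile was subtracted on the log2 scale, and spots of a probe were averaged. Each gene was represented by its brightest probe among those that all 3 arrays of at least 1 group detected well above background. Testing a comparison required such detection in either of its groups. Fits used limma 3.58.1 in R 4.3.3, two-sided, over all genes, with Benjamini-Hochberg adjustment and a threshold of 0.05, and were tested on simulated data. Alternatives changed background correction, scaling, filter, probe summary, variance model, slide, replicate block and left-out arrays. Where no array of a group was well above background, a fold is a lower bound, set against the dimmest detected signal of each array. The number of arrays limits the precision.

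All 8 members, Abhd5 and, per comparison, up to 8 other complement genes past the threshold with the smallest adjusted p were named, plus those whose probes disagree. Of genes below that threshold, C1ra and Cfd were named after their values were seen. The nearest genes were the 3 with the smallest difference, passing over clone and predicted names. The members and lists were chosen with earlier results of these data known.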

Additional observations from a re-analysis of the deposited data

Results flagged for a closer look

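Within the 8 members, the other complement genes and Abhd5, 17 genes passed the interaction contrast, among them Abhd5. Their change in RAW264.7 cells (knockdown minus control) differed from that in CT-26 cells (knockdown-primed minus control-primed). Of all 27067 genes tested, 31.4% passed it. Among the 8 complement members the differences were 3.34 for C3, 2.16 for Cfb, 3.33 for C3ar1 and 2.45 for C5ar1, the last against CT-26 signals that were not well above background. The largest among the other complement genes was that of Cd93, at 3.79. Itgax gave 2.01 and C1s2 gave 2.05, both with a group at background: Itgax was measured on no CT-26 array and the C1s2 probe on no control RAW264.7 array, and after normexp they gave 0.82 and 0.34 and did not pass. C4b gave 1.16, Cd59a gave 0.81 and C5ar2, the other C5a receptor gene, gave 1.38. Differences in the other direction were -1.19 for Masp2, -1.23 for Mbl1, a mannose-binding lectin gene, -1.11 for C7, a terminal pathway component, -1.30 for Clu, which encodes clusterin, -0.81 for C8g, a terminal pathway subunit, and -1.18 for C1qbp, a C1q-binding protein gene. C5ar2 and C8g were named after their values were seen. The other 2 Masp2 probes gave -0.70 and -0.61 and did not pass, and with the mean of the probes Masp2 did not pass. The silenced gene Abhd5 gave -1.39, while its other 2 probes gave -0.48 and -0.81 and did not pass (limma adjusted p = 0.318 and limma adjusted p = 0.240, over all probes). Neither size for Itgax nor that for C5ar1 can be read as a difference in response. With the slide as a block, C1s2, Cd93, Masp2 and C1qbp kept their call among the other complement genes, with 2.45, 3.71, -1.05 and -1.17. C4b, Cd59a, C5ar2, C8g, Mbl1, C7, Clu and Itgax did not pass with that block, with limma adjusted p between 0.0529 and 0.170.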

How the results depend on the processing

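The number of members called was within 1.5 times its value in 68 repeats and outside it in 2: in CT-26 cells it was 0, and 1 (Cfb) after normexp and with the stricter filter. That rule compares counts, not which genes were called. In RAW264.7 cells the stricter filter left out Cfb and C5ar1 while C1qb passed, and Cfp passed after quantile normalization. The interaction lost Cfb after normexp and C5ar1 with the slide as a block. All of these still fell within the rule. The 4 rises in RAW264.7 cells passed under each alternative that could test them, and ranged from 3.66 to 4.21 for C3, 2.74 to 3.41 for C3ar1, 2.04 to 3.63 for C5ar1 and 1.12 to 3.90 for Cfb. Changes of sign concerned values near 0. Cfp in RAW264.7 cells gave 0.22 with median centring, 0.52 after quantile normalization, 0.010 from the deposited value table and -0.11 to 0.044 with 1 array left out, and its difference between cell lines gave 0.37 after quantile normalization. C1qb in CT-26 cells gave -0.0093 to 0.22 with 1 array left out. C3ar1 in CT-26 cells gave 0.031 after normexp and -0.35 to 0.0082 with 1 array left out, and between the control groups -0.054 to 0.23. C1qa in the interaction gave 0.17 with median centring, 0.16 after quantile normalization, 0.0089 from the value table and -0.48 to 0.30 with 1 array left out. In a fit chosen after seeing the data, which left out both control arrays of slide 1, Cfb was 0.72 lower in control RAW264.7 than in control-primed CT-26 cells (limma adjusted p = 0.0444). C1qa between the control groups, 0.66, passed with normexp, the replicate block and without control-primed replicate 1. No pairing by replicate number was seen: same-numbered deviations correlated at -0.01, 0.01 and -0.08 in RAW264.7 and -0.10, -0.17 and -0.03 in CT-26 cells. With so few arrays per group these values cannot exclude that same-numbered samples were grown or processed together. With the replicate block 4811 of all genes passed in RAW264.7 cells, beside 5801 without it, and the member count stayed at 4. All CT-26 arrays shared a slide, so no slide block could be fitted there. The causes of these shifts were not tested. Signals near background limit the sizes for Cfb and C5ar1.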
